A study of Mus musculus with 6 samples.

Results

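The cholesterol and lipid synthesis genes of regulatory T cells (Tregs) were examined for the effect of losing Zfp335, a zinc finger transcription factor. The group was defined by a list of 37 gene symbols with known roles in sterol and fatty acid metabolism, and all 37 were found among the 13709 rows of the count table and entered the test. They comprise 5 regulators of the sterol regulatory element-binding proteins (SREBPs), 7 enzymes of the mevalonate arm, 11 enzymes of the sterol arm, 8 enzymes of fatty acid synthesis, elongation and desaturation, and 6 genes of sterol transport, storage and export. RNA-Seq had been done on sorted CD4+YFP+CD25+ Tregs of C57BL/6 mice, with 3 WT samples (Foxp3Cre) and 3 KO samples (Foxp3Cre Zfp335fl/fl). In both genotypes the Foxp3 locus drives Cre recombinase fused to YFP, so WT Tregs also carry Cre, and in KO mice Cre deletes the floxed Zfp335 gene in cells that express Foxp3. The mice were 2 weeks old per the study's methods, and the labels name both lymph nodes and spleen as the tissue. Whether each sample came from a different mouse or from pooled mice is not given in the sources used here, so p-values measure the spread between these samples, which may be partly technical.

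In KO Tregs enzymes of cholesterol synthesis such as Hmgcs1, Idi1, Sqle and Lss rose. Genes of cholesterol export and storage such as Abca1 and Soat1 fell, as did Mylip, which limits sterol uptake. A gene was called, and is said to have risen or fallen, when it passed the cutoffs of the study, a fold change over 1.5, an unadjusted p below 0.05 and an adjusted p (over all genes) below 0.1. By this rule 12 of the 37 lipid genes were called higher and 5 lower, so that 17 (45.9%) were called, whereas 24.4% of the 13594 genes tested were called. By direction, the background over all genes was 11.9% called higher and 12.5% called lower. The 12 include Fads2, which had enough counts to be tested in KO samples only. The list was chosen with earlier results of these data known, so these shares describe it and do not test it.

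Cells make cholesterol from acetyl-CoA through mevalonate and squalene, and the same mevalonate also feeds the isoprenoids that anchor small GTPases in membranes. When membrane sterol is low, SCAP carries the SREBP precursors to the Golgi, where they are cleaved into active transcription factors, whereas INSIG proteins hold SCAP back when sterol is plentiful. Oxysterols, which form when sterol is in excess, activate the liver X receptors (LXRs), whose targets include Abca1, Abcg1 and Mylip. T cells turn on sterol and fatty acid synthesis when they are activated and divide, and the mevalonate pathway is known to be needed for Treg proliferation and function.

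Promoter sequences are shown for 7 genes, since SREBPs, NF-Y and LXRs act through short DNA elements near the start of transcription. RefSeq (GRCm38.p6) gave a promoter, from 250 bases before to 50 bases after a start site, for 28 of the 37 genes. Printed here are the 150 bases before the start, 5′ to 3′ on the strand of the gene, for 5 genes that rose in KO Tregs and for 2 that fell. Capitals mark matches, on either strand, to TCACNCCAC (the core of a sterol regulatory element), CACGTG (an E-box, which SREBPs also bind) and CCAAT (the NF-Y element, read as ATTGG where it lies on the other strand). No other RefSeq gene lies in these windows, although those of Lss, Hsd17b7 and Abca1 reach into their own gene, which has a further start upstream. The 5 printed genes that rose are those called higher whose promoter held CCAAT. The promoters of Acaca, Elovl6 and Fads2, also called higher, held no CCAAT and are not printed.
Hmgcs1, chr13:119690201-119690350, plus strand: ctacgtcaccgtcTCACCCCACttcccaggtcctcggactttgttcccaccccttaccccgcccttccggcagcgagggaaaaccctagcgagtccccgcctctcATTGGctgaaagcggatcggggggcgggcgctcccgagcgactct
Idi1, chr13:8885456-8885605, plus strand: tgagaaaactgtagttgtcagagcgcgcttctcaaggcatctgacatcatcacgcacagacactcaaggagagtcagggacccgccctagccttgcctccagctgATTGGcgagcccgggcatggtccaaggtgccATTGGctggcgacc
Lss, chr10:76531455-76531604, plus strand: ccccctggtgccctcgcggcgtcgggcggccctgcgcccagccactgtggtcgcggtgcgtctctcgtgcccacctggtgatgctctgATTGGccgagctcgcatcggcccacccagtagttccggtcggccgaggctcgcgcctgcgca
Cyp51, chr5:4104698-4104847, minus strand: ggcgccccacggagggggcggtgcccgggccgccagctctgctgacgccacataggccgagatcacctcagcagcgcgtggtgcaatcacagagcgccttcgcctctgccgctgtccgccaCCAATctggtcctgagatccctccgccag
Hsd17b7, chr1:169969206-169969355, minus strand: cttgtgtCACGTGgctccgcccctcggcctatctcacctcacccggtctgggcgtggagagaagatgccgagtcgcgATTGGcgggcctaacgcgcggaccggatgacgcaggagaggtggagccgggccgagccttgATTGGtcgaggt
Mylip, chr13:45389592-45389741, plus strand: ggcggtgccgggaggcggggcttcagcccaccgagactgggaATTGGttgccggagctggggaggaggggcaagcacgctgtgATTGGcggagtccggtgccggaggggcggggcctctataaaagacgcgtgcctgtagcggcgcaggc
Abca1, chr4:53159896-53160045, minus strand: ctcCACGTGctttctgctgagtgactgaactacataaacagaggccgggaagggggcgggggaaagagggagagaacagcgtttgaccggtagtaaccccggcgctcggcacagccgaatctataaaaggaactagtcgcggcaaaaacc

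Among the 28 genes with a promoter, only Hmgcs1 held the sterol regulatory element core in the whole window, with its first base 137 bases before the start. This core was held by 1.24% of all 32851 RefSeq promoters and by 1.31% of the tested genes that had one. CCAAT was present in 22 of the 28 genes (78.6%), compared with 37.4% of all promoters and 43.0% of the 10654 tested genes that had a promoter. In Idi1 the element began 45 and 14 bases before the start, and in Cyp51 a single copy began 29 bases before it. CCAAT was held by 5 of the 8 promoters of genes called higher in KO Tregs and by 3 of the 4 of genes called lower, so genes of both directions carried it. The E-box was found in 6 of the 28 genes (21.4%), namely Abca1, Dhcr7, Hsd17b7, Insig1, Sc5d and Scap, compared with 7.15% of all promoters and 11.3% of the tested genes that had one. The LXR element searched, 2 copies of AGGTCA on the same strand with 4 bases between them, was found in none of the 28 and in 5 of all promoters. A match describes the sequence only, and a missing match says nothing about binding of the factor.

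Total counts ranged from 32032631 to 40728419 per sample. Zfp335 itself was at 101, 94.3 and 103 CPM (counts relative to the TMM-scaled total of each sample) in WT samples 1 to 3 and at 36.98, 37.9 and 40.2 in KO samples 1 to 3, a log2 fold change of −1.37 ± 0.07 (standard error, SE; edgeR adjusted p = 2.14e-05). Exons of Zfp335 overlap those of Pcif1 on the opposite strand over 23.3% of their length. Of the 50-base stretches of its transcript, 20.25% also occur in other genes, so its counts are uncertain to that degree. The third WT sample (WT 3) stood apart from the other two on the second principal component, which held 18.4% of the variance. WT 3 was the lowest WT sample for all 20 genes of a proliferation list, whose summed expression was 2435, 2423 and 1388 CPM in WT and 6305, 6065 and 6054 in KO, with 20 of 20 called higher. The Treg marker list summed to 3025 to 4324 CPM in WT, highest in WT 3, and to 2420 to 2456 in KO, with Foxp3 and Ikzf2 called lower among its 5 genes. Foxp3, which defines Tregs, was at 738, 642 and 1190 CPM in WT samples 1 to 3 and at 460 to 472 in KO. The size of its fall thus depended on WT 3. Of the myeloid and neutrophil list, 6 of 6 measured markers were called higher. Their sum was 8.50 to 19.6 CPM in WT and 42.3 to 49.1 in KO, with S100a8 and S100a9 at 0 in every WT sample. S100a8 and S100a9 thus had enough counts to be tested in KO samples only, so their calls add no independent support. Adgre1 was also low in WT, with 12, 8 and 3 counts. The study reported S100a8 and S100a9 as high in a Treg cluster that accumulated in KO mice. Summed NK cell markers were at 3.59 to 5.83 CPM in WT and at 14.9 to 16.2 in KO (2 of 3 called higher), and dendritic cell markers at 2.41 to 4.24 and at 8.92 to 11.6 (1 of 5 called higher). Most of the NK sum in KO was Eomes (1.80 to 3.24 CPM in WT, 11.1 to 11.6 in KO). Most of the dendritic sum in KO was Itgax (0.060 to 0.731 CPM in WT, 5.75 to 8.86 in KO). The other dendritic markers were not called, with log2 fold changes of −0.12 (Zbtb46), −0.90 (Xcr1), 0.61 (Flt3) and 1.02 (Siglech). T cell markers summed to 1666 to 1891 CPM in WT and 1596 to 1681 in KO, with none of 4 called. Cd3e, Cd3g and Cd28 were lower, and Cd4 was higher, in every KO sample than in every WT sample. CD8 T cell markers summed to 9.32 to 13.2 CPM in WT and 12.0 to 12.7 in KO, with Cd8a called higher and Cd8b1 not called. B cell markers summed to 21.0 to 24.5 CPM in WT and 19.8 to 21.6 in KO, and of 6 markers Cd22 was called higher and Cd79b lower. Erythroid markers, none of 4 called by edgeR and 1 by DESeq2, summed to 59.3, 69.2 and 16.3 CPM in WT and to 29.3 to 35.5 in KO. The part that proliferation, other cell types or WT 3 had in the differences below was not tested, and in RNA from bulk cells a shift in the mix of cells cannot be told apart from a change of RNA per cell.

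The median log2 fold change of the 37 genes was 0.30, and that of all genes tested was −0.04. KO and WT values did not overlap for 26 of the 37 genes, 19 with KO higher and 7 with KO lower, whereas this held for 53.8% of all genes. Without WT 3, 17 of the 37 were again called, 15 of them shared with the fit of all samples, and the median was 0.21. The number called was 3 of 7 in the mevalonate arm and 4 of 8 among the fatty acid enzymes, all higher, 5 of 11 in the sterol arm with 1 lower, and 5 of 6 among transport and export genes with 4 lower. None of the 5 regulators was called by edgeR or DESeq2. An edgeR adjusted p under 0.1 was found for 3 of them and for 6390 of the 13594 genes tested.

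**Figure D1:**
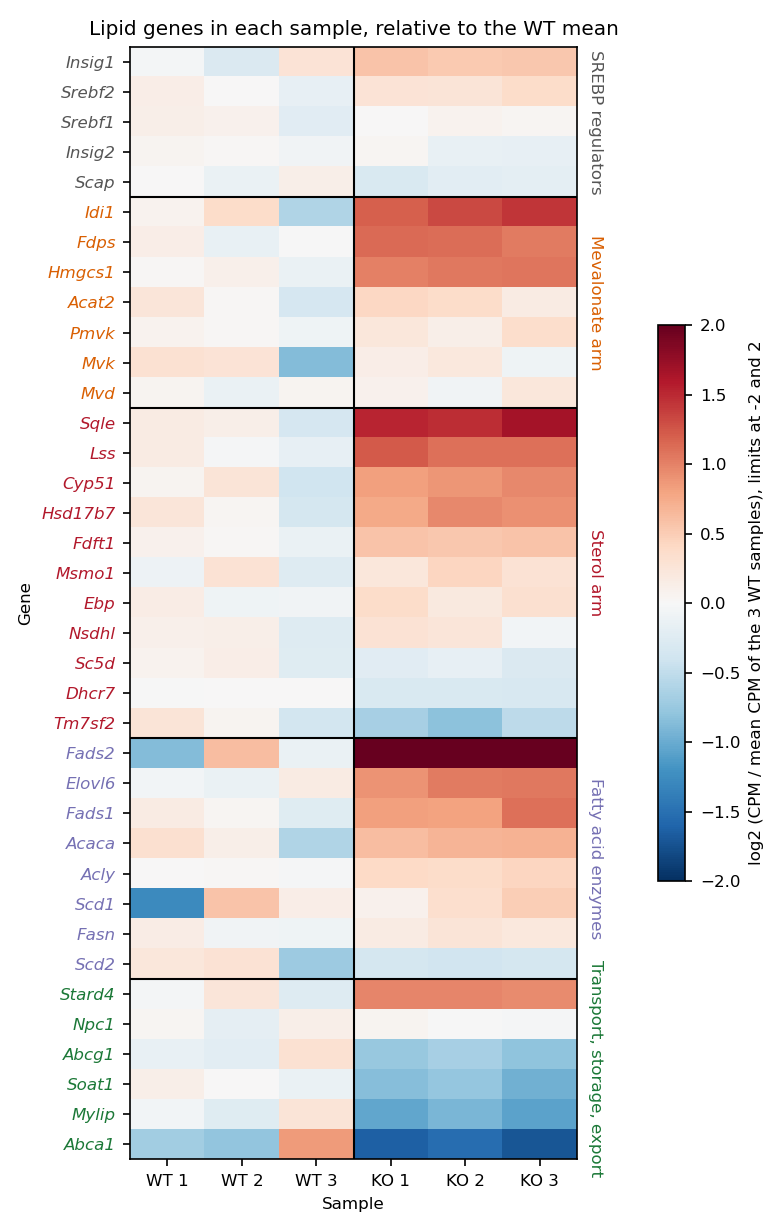
Expression of the 37 lipid genes in each of the 6 samples, drawn as log2 of the CPM over the mean CPM of the 3 WT samples, with genes (rows) grouped by role and ordered by fold change; the color scale stops at −2 and 2, which the KO samples exceed for Fads2. In KO samples most rows of the mevalonate and sterol arms are red and 4 of the 6 transport and export rows are blue, and WT 3 differs from the other WT samples in many rows.

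None of the regulators of SREBP processing reached a 1.5-fold difference. Srebf2, Insig1 and Scap each differed without overlap of the groups, as did 53.8% of all genes. Srebf2, which encodes the SREBP that acts mainly on sterol genes, was at 266, 245 and 216 CPM in WT and at 292, 291 and 312 in KO. All KO samples lay above all WT samples, and the log2 fold change was 0.30 ± 0.09 (edgeR adjusted p = 0.030), below the 1.5-fold cutoff. Srebf1, whose product acts mainly on fatty acid genes and whose transcription LXRs stimulate, was at 153, 149 and 120 CPM in WT and at 141, 147 and 144 in KO, with overlapping groups and a log2 fold change of 0.04 ± 0.10. That of Srebf1 turned to −0.07 without WT 3 and to −0.0072 with library totals as the only scaling.

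Insig1, itself an SREBP target that closes the feedback loop, was at 39.2, 32.9 and 48.5 CPM in WT and at 59.999, 58.0 and 58.5 in KO. The groups did not overlap, and the log2 fold change of 0.55 ± 0.13 (edgeR adjusted p = 0.014) was just under the cutoff, whereas without WT 3 it was 0.70 and the gene was called. Without WT 2 the log2 fold change of Insig1 was 0.42, and it was called in 1 of the 6 fits that left out a sample. Scap, the escort of the SREBP precursors, had 142, 128 and 152 CPM in WT and 114, 122 and 123 in KO, with every KO sample lower, and a log2 fold change of −0.24 ± 0.08 (edgeR adjusted p = 0.049). About 13.1% of the 50-base stretches of Scap transcripts also occur in another gene, so its counts are uncertain to that degree. Insig2 was at 18.01, 17.7 and 16.5 CPM in WT and at 17.8, 15.7 and 15.6 in KO, with overlapping groups, and was not called (log2 fold change −0.09, edgeR adjusted p = 0.55).

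In the mevalonate arm, 3 enzymes rose about 2-fold or more, and the 4 others had log2 fold changes between 0.08 and 0.32. Hmgcs1, the cytosolic synthase that condenses acetyl-CoA with acetoacetyl-CoA into HMG-CoA, was at 35.2, 37.1 and 31.7 CPM in WT and at 69.4, 71.7 and 72.5 in KO. Its log2 fold change was 1.04 ± 0.08 (edgeR adjusted p = 0.000108), and the KO mean (71.2 ± 1.61 CPM, SD, n = 3) was 205% of the WT mean (34.7 ± 2.71). The spread between samples was thus far smaller than the difference. Hmgcs1 is the gene whose promoter, printed above, holds the sterol regulatory element core.

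Idi1, which isomerizes isopentenyl diphosphate, was at 21.6, 26.5 and 13.5 CPM in WT and at 47.2, 51.5 and 55.6 in KO. WT 3 was the lowest sample, and the log2 fold change was 1.32 ± 0.22 with it and 1.09 without it, called in both fits (edgeR adjusted p = 0.00259 with all samples). Fdps makes farnesyl diphosphate, the branch point to sterols and to protein prenylation, and had 24.9, 20.5 and 22.7 CPM in WT and 49.7, 49.0 and 46.9 in KO, a log2 fold change of 1.10 ± 0.10 (edgeR adjusted p = 0.000162). Counts of Fdps are uncertain, since 86.4% of its 50-base stretches also occur in pseudogenes and in an overlapping gene model, and the same share was 30.5% for Idi1 and 13.6% for Hmgcs1.

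Of the mevalonate enzymes that were not called, Acat2, which makes acetoacetyl-CoA, ranged from 14.7 to 21.8 CPM in WT and from 20.7 to 24.7 in KO (log2 fold change 0.32, edgeR adjusted p = 0.14), and 45.9% of its 50-base stretches occur in other genes such as its paralog Acat3. Mevalonate kinase, Mvk, was at 13.6, 13.4 and 6.07 CPM in WT and ranged from 10.4 to 12.7 in KO, so WT 3 alone was low. Its log2 fold change was 0.09 with all samples and −0.21 without WT 3 (edgeR adjusted p = 0.84 and 0.20). Pmvk, the next kinase, ranged from 13.4 to 14.9 CPM in WT and from 15.6 to 18.1 in KO with no overlap, but was not called (log2 fold change 0.24, edgeR adjusted p = 0.13). Mvd, the decarboxylase that yields isopentenyl diphosphate, ranged from 18.2 to 20.7 CPM in WT and from 19.0 to 23.2 in KO (log2 fold change 0.08, edgeR adjusted p = 0.60).

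Of the 11 enzymes of the sterol arm, which convert farnesyl diphosphate through squalene and lanosterol to cholesterol, 4 rose and 1 fell. The largest log2 fold change of the arm was that of Sqle, squalene epoxidase, a rate-controlling enzyme, which was at 15.5, 15.1 and 10.995 CPM in WT and at 39.7, 38.5 and 44.0 in KO. The groups were far apart, and the log2 fold change was 1.56 ± 0.14 (edgeR adjusted p = 0.000216). The means were 13.8 ± 2.47 CPM in WT and 40.7 ± 2.86 in KO (SD, n = 3), and without WT 3 the log2 fold change was 1.41.

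Fdft1, squalene synthase, acts just before Sqle and was at 26.1, 25.1 and 22.5 CPM in WT and at 36.4, 35.6 and 36.3 in KO. Its log2 fold change of 0.55 ± 0.09 (edgeR adjusted p = 0.00217) was just under the fold cutoff, and it passed without the first WT sample (0.60). Without WT 3 the log2 fold change was 0.49, and Fdft1 was called in 1 of the 6 fits that left out a sample. Exons of Fdft1 overlap those of Ctsb on the opposite strand over 18.3% of their length. Ctsb itself was at 204 CPM in WT and 213 in KO on average, a log2 fold change of 0.06.

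Lss closes the sterol rings to lanosterol and was at 18.1, 15.9 and 14.4 CPM in WT and at 37.7, 34.7 and 34.5 in KO, a log2 fold change of 1.14 ± 0.11 (edgeR adjusted p = 0.000271). Cyp51, the lanosterol demethylase, was at 31.6, 36.5 and 23.1 CPM in WT and at 53.6, 56.0 and 59.2 in KO, with a log2 fold change of 0.89 ± 0.16 (edgeR adjusted p = 0.00342). For both genes the groups did not overlap and WT 3 was the lowest sample. Hsd17b7, which reduces a keto group of sterol intermediates, had the lowest level of the arm per kilobase of transcript (2.03 CPM in WT). Hsd17b7 was at 11.1, 9.65 and 7.36 CPM in WT and at 15.8, 18.3 and 17.6 in KO, and its log2 fold change was 0.88 ± 0.17 (edgeR adjusted p = 0.00496).

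Tm7sf2, a reductase of a double bond in the sterol rings, went the other way. It was at 16.9, 14.7 and 10.9 CPM in WT and at 8.95, 8.01 and 9.84 in KO, so the groups were apart but WT 3 came close to the KO samples. The log2 fold change was −0.67 ± 0.18 (edgeR adjusted p = 0.022), and without the first WT sample it was −0.52 and no longer past the fold cutoff. Tm7sf2 shares 12.1% of its exon length with Vps51 on the same strand, which had a log2 fold change of −0.19. Lbr, an inner nuclear membrane protein that catalyzes the same reduction, was called higher, at 196, 188 and 198 CPM in WT and 353, 337 and 342 in KO (log2 fold change 0.83 ± 0.06, edgeR adjusted p = 8.59e-05).

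The other 5 enzymes of the arm differed by less than 1.5-fold. Dhcr7, which catalyzes the final reduction to cholesterol, was at 44.1, 44.7 and 44.6 CPM in WT and at 35.8, 36.2 and 35.4 in KO, a log2 fold change of −0.31 ± 0.07 (edgeR adjusted p = 0.00946). Its samples were tightly grouped by genotype, but the difference was below 1.5-fold. Ebp, the sterol isomerase, was at 45.3, 38.6 and 39.2 CPM in WT and at 52.6, 47.2 and 51.3 in KO (log2 fold change 0.30, edgeR adjusted p = 0.036). Groups overlapped for Msmo1, the sterol methyl oxidase (14.0 to 20.5 CPM in WT, 19.5 to 22.6 in KO, log2 fold change 0.32, edgeR adjusted p = 0.14), and for Nsdhl, its partner dehydrogenase (14.2 to 18.4 and 16.3 to 20.7 CPM, 0.17, adjusted p = 0.40). Sc5d, the desaturase before Dhcr7, ranged from 60.1 to 78.1 CPM in WT and from 58.0 to 63.6 in KO (log2 fold change −0.22, edgeR adjusted p = 0.14).

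Summed over the 18 enzymes of both arms, expression was 470, 466 and 384 CPM in WT and 623, 624 and 630 in KO, so that the KO mean was 1.42 times the WT mean. In WT 3 the sum was lower than in the other WT samples, as 14 of the 18 genes were at their lowest WT value there. The proliferation sum was likewise lowest in WT 3 and higher in every KO sample than in every WT sample, and its part in this difference was not tested. Per kilobase of transcript, the level of Sqle was 5.02 CPM in WT and 14.8 in KO, and that of Ebp was 23.5 and 28.9, so enzymes with a small difference included the one with the highest WT level of the sterol arm.

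**Figure D2:**
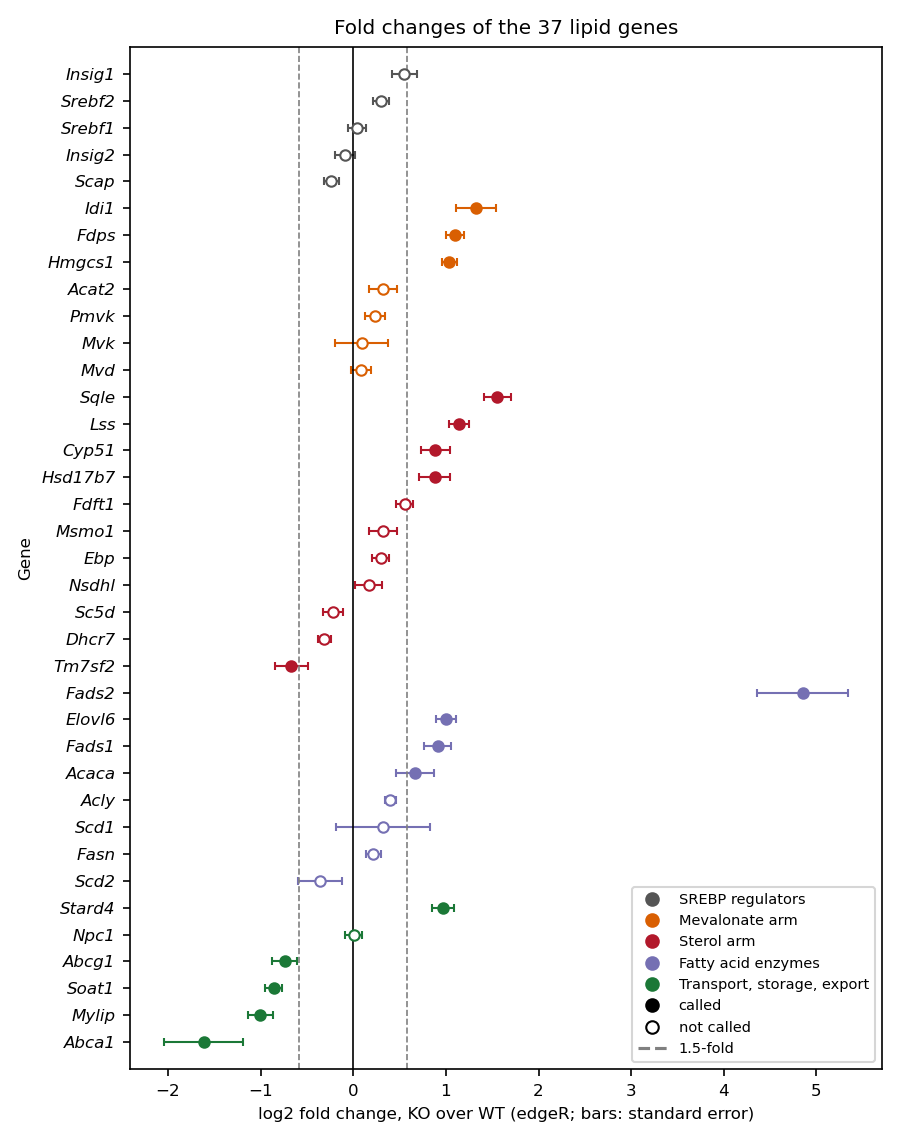
Log2 fold change of KO over WT for the 37 lipid genes from edgeR (points) with its SE (bars), by role, where filled points are called genes and dashed lines mark 1.5-fold. In the mevalonate and sterol arms 7 genes lie to the right of the upper line and Tm7sf2 lies to the left of the lower one, whereas Abca1, Mylip, Soat1 and Abcg1 lie to the left.

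Among fatty acid enzymes, 4 of 8 rose and none fell. Fads2, counted among these 4, entered the test through its KO samples alone. The 3 largest log2 fold changes of the list were those of Fads2, Elovl6 and Fads1. Elovl6 extends palmitate to stearate and was at 23.9, 22.7 and 27.8 CPM in WT and at 46.1, 51.3 and 51.7 in KO, a log2 fold change of 1.002 ± 0.10 (edgeR adjusted p = 0.000349). WT 3 was the highest WT sample for Elovl6, unlike most lipid genes. Fads1, a desaturase of polyunsaturated fatty acids, was at 13.7, 12.5 and 10.3 CPM in WT and at 21.4, 21.1 and 26.2 in KO, with a log2 fold change of 0.91 ± 0.15 (edgeR adjusted p = 0.00225).

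Fads2, the desaturase that acts first on these fatty acids, which lies near Fads1 on chromosome 19 (10062765 to 10101503), was near the limit of detection in WT. It had 2, 5 and 3 counts in WT and 123, 131 and 75 in KO. Pooled over samples and relative to the scaled totals, the KO level was 30.2 times the WT level. Its exact 95% interval of 16.2 to 63.7 covers counting error only. Fads2 passed the low-count filter through its KO samples alone, so its edgeR adjusted p of 0.000315 adds no independent support. In KO its level remained low, at 2.13 to 3.37 CPM. The myeloid markers S100a8 and S100a9, at 0 in WT, were at 1.30 to 2.82 CPM in KO. By single-cell RNA-Seq of younger mice, the study reported both as high in a dysfunctional Treg cluster that accumulated in KO. Whether myeloid cells or such Tregs had a part in the Fads2 counts was not tested.

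Acaca, acetyl-CoA carboxylase, the committed step of fatty acid synthesis, was at 57.6, 50.3 and 30.6 CPM in WT and at 71.0, 73.7 and 74.5 in KO. Its log2 fold change was 0.66 ± 0.20 (edgeR adjusted p = 0.035), but 0.43 without WT 3, which was below the cutoff, so the call rests on that sample. Of its 50-base stretches 52.6% also occur in a pseudogene. Acly, which makes cytosolic acetyl-CoA from citrate, was at 260, 264 and 254 CPM in WT and at 344, 336 and 349 in KO, a log2 fold change of 0.40 ± 0.06 (edgeR adjusted p = 0.00166), with small spread but under 1.5-fold. Fasn, the fatty acid synthase, had 251, 215 and 213 CPM in WT and 254, 272 and 262 in KO (log2 fold change 0.22 ± 0.08, edgeR adjusted p = 0.073), with no overlap of the groups.

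Stearoyl-CoA desaturases introduce the first double bond into saturated fatty acids. Per kilobase of transcript, the WT level of Scd2 was 41.3 CPM and that of Scd1 was 0.204. Scd2 was at 263, 276 and 136 CPM in WT and at 176, 173 and 177 in KO, and Scd1 ranged from 0.407 to 1.46 in WT and from 1.04 to 1.39 in KO. The WT samples of Scd2 lay on both sides of the KO samples, and the log2 fold change was −0.36 ± 0.24 and not called (edgeR adjusted p = 0.27). Without WT 3 it was −0.62 and called (edgeR adjusted p = 1.66e-07), so the call of Scd2 depended on WT 3. Scd1 was not called either (log2 fold change 0.32, edgeR adjusted p = 0.66), and the isoforms share 4.01% to 4.66% of their 50-base stretches with each other and with further Scd genes.

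**Figure D3:**
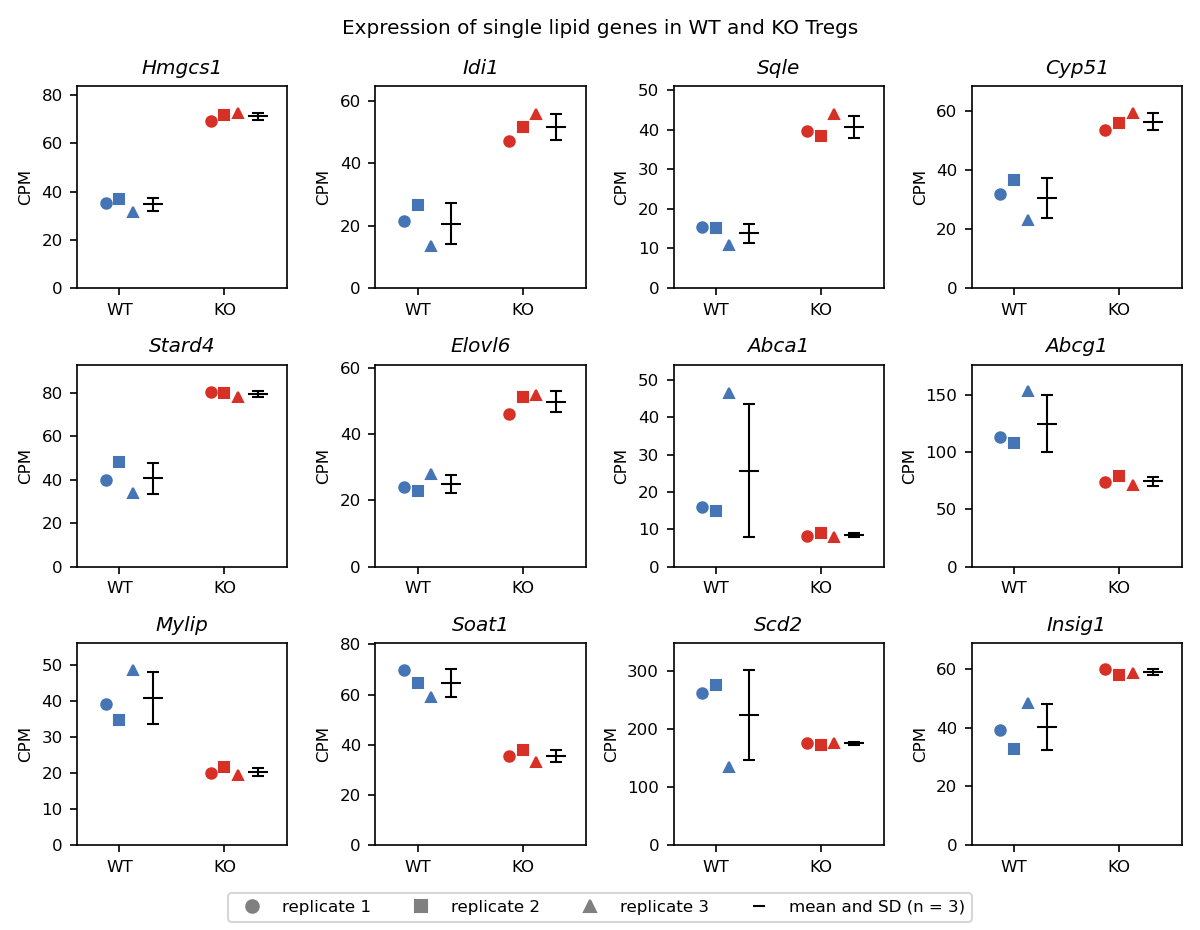
CPM of 12 lipid genes in each sample (y axes, starting at 0), with WT in blue, KO in red, marker shape giving the replicate number and black bars giving mean and SD of 3 samples. The top row and Stard4 and Elovl6 are higher in all KO samples, Abca1, Abcg1, Mylip and Soat1 are lower, and WT 3 (triangle) stands apart for Abca1 (46.4 CPM) and Scd2 (136 CPM).

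The genes of sterol transport, storage and export fell at 4 of 6, and these included the LXR targets Abca1, Abcg1 and Mylip. Srebf1, whose transcription LXRs also stimulate, was not called (log2 fold change 0.04 ± 0.10). Abca1 loads cholesterol onto apolipoproteins and was at 15.9, 14.8 and 46.4 CPM in WT and at 8.32, 8.94 and 7.89 in KO. WT 3 was about 3 times the other WT samples, and the log2 fold change was −1.62 ± 0.42 (edgeR adjusted p = 0.019). Without WT 3 it was −0.88 and still called (edgeR adjusted p = 5.16e-05), so the gene was lower in either fit but the size of the change depended on that sample. The KO mean was 8.38 ± 0.53 CPM (SD, n = 3).

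Abcg1, which passes cholesterol to high-density lipoprotein, was at 113, 108 and 153 CPM in WT and at 73.5, 78.9 and 71.1 in KO. Its log2 fold change was −0.74 ± 0.13 (edgeR adjusted p = 0.00383), and without WT 3 it was −0.57, just short of the fold cutoff, with an adjusted p of 4.77e-06 and all KO samples below all WT samples. Mylip encodes a ubiquitin ligase that limits sterol uptake and was at 39.2, 34.6 and 48.5 CPM in WT and at 19.9, 21.5 and 19.5 in KO, a log2 fold change of −1.004 ± 0.13 (edgeR adjusted p = 0.000971). KO samples thus held 49.9% of the WT level, and without WT 3 the log2 fold change was −0.86. WT 3 was the highest WT sample for Abca1, Abcg1 and Mylip, where it was mostly the lowest for synthesis genes.

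Soat1, which esterifies cholesterol for storage in droplets, was at 69.9, 64.8 and 59.0 CPM in WT and at 35.7, 37.8 and 33.2 in KO, with a log2 fold change of −0.86 ± 0.09 (edgeR adjusted p = 0.00041). Unlike Abca1, Abcg1 and Mylip, Soat1 did not peak in WT 3, and without that sample its log2 fold change was −0.92. Stard4, a cytosolic sterol carrier and SREBP target, rose, from 39.8, 48.2 and 34.0 CPM in WT to 80.4, 80.1 and 78.2 in KO (log2 fold change 0.97 ± 0.12, edgeR adjusted p = 0.000822). Npc1, the lysosomal cholesterol exporter, was at 68.5 to 84.1 CPM in WT and 75.7 to 80.1 in KO, with a log2 fold change of 0.0043 ± 0.09 (edgeR adjusted p = 0.98).

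**Figure D4:**
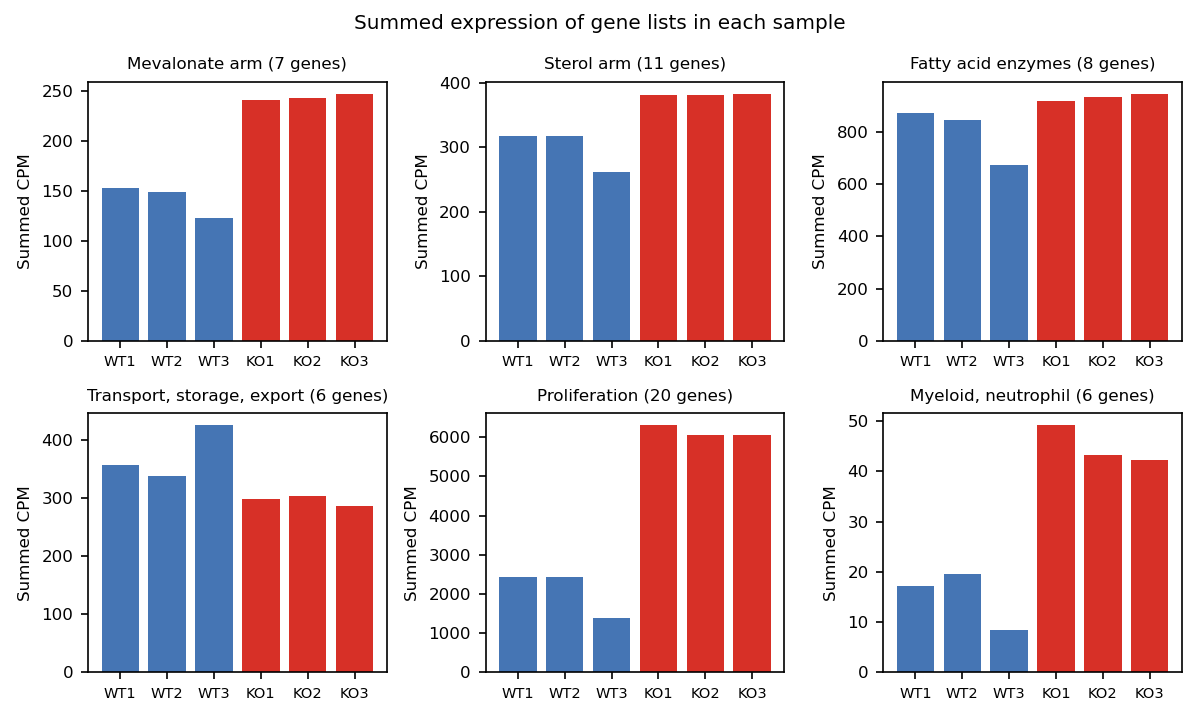
Summed CPM of 4 lipid gene lists and of the proliferation and myeloid marker lists in each sample (bars, y axes starting at 0, WT in blue, KO in red). Mevalonate arm sums are 123 to 153 CPM in WT and 241 to 247 in KO, transport and export sums are 339 to 425 and 286 to 304, and WT 3 has the lowest sum of the WT samples in every panel except that of transport and export.

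Values varied more among WT than among KO samples. The median SD of log2 CPM over the 37 genes was 0.21 in WT and 0.08 in KO, close to the values over all genes, 0.20 and 0.09. WT 3 was the lowest WT sample for 24 of the 37 and the highest for 7, of which 4 belonged to the 6 transport and export genes.

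Other genes of these pathways, taken from lists of 57 genes of which 54 were measured, had 6 called (11.1%, beside 24.4% of all genes) and a median log2 fold change of 0.04. Higher in KO Tregs were Dgat1, which completes triglyceride synthesis (23.1 ± 2.30 CPM in WT, 52.3 ± 3.38 in KO, SD, n = 3), with a log2 fold change of 1.18 ± 0.10, and Mid1ip1, an activator of acetyl-CoA carboxylase (13.5 ± 1.17 and 27.4 ± 1.56 CPM), with 1.02 ± 0.11. Pdss1, which makes the side chain of coenzyme Q, Lpin1, a phosphatidate phosphatase, and Lbr were called higher too, at log2 fold changes of 0.70, 0.70 and 0.83. Hacd3, a dehydratase of very long chain fatty acid elongation, was the single gene called lower (119 ± 5.37 CPM in WT, 62.4 ± 1.94 in KO, log2 fold change −0.93 ± 0.07). None of the 10 other sterol transport and storage genes measured was called by edgeR or DESeq2. An edgeR adjusted p under 0.1 was found for 4 of them, with differences below 1.5-fold, and for 6390 of the 13594 genes tested.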

How the data were processed

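Gene expression was measured by RNA-Seq in sorted Tregs of 3 WT and 3 KO samples, grouped by the genotype in the labels. Per the study's methods and the labels' processing notes, reads were filtered with SOAPnuke, mapped with HISAT2 to mm10 with at most 1 location reported for each read, and summarized per gene with StringTie. The authors deposited whole-number counts per gene with no normalization applied. The step that gave whole numbers, the annotation and the use of strand are not given in the sources used here. The smallest row sum was 60, so genes with low counts are absent from the table. With a single location reported, reads from a gene with a close copy may have been counted for the other copy.

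Counts were tested with edgeR 4.0.16 in R 4.3.3, using filterByExpr (minimum count 10), TMM scaling and the quasi-likelihood F-test over 6 samples without covariates, two-sided, with Benjamini-Hochberg adjustment over 13594 genes. SE was the log2 fold change divided by the square root of F. DESeq2 1.42.0, other scalings, filters and cutoffs, a replicate block and leaving out each sample were alternatives. The procedure was tested on simulated data. The 3-count floor was 0.0737 to 0.0937 CPM and, like intervals, covers counting error only. Positions and promoters came from RefSeq GRCm38.p6 (the assembly mm10 denotes), and lengths, exon overlaps and shared 50-base stretches from GENCODE transcripts. Values per kilobase used the length of the longest coding transcript. Genes named with values in every sample were the 5 regulators, called genes, and genes whose groups did not overlap with an adjusted p under 0.1. Mvk and Scd2 were shown by sample after their values were seen. From the other lipid lists, up to 3 called genes in each direction with a mean of at least 5 CPM were named. The members and lists were chosen with earlier results of these data known, so no test of a list as a whole was made.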

Additional observations from a re-analysis of the deposited data

How the results depend on the processing

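The same 17 of the 37 genes were called with DESeq2 (3370 of all genes called), RLE scaling, library totals alone, no filter on low counts, and the replicate block. Requiring 10 counts in every sample removed Fads2, so that 16 of the 17 remained. With an adjusted p under 0.05 and no fold cutoff, 5244 genes were called in all (2610 higher, 2634 lower), 24 of the 37, and 21 of the other lipid genes in place of 6. A test against a fold change of 1.5 (glmTreat) called 1686 genes (941 higher, 745 lower) and 12 of the 37, of which 3 were lower in KO, and the calls of Cyp51, Tm7sf2, Hsd17b7, Acaca and Abcg1 were lost. Leaving out each sample in turn gave 2867 to 3667 called genes (1414 to 1862 higher and 1453 to 1805 lower), 17 of the 37 in every fit (12 to 13 higher, 4 to 5 lower, 15 to 17 of them shared with the fit of all samples), a median of 0.21 to 0.30, and 5 to 7 of the other lipid genes. The log2 fold change changed sign for 4 genes that no setting called. With library totals alone, that of Srebf1 was −0.0072 and that of Npc1 was −0.0333. Leaving out each sample in turn gave −0.0697 (without WT 3) to 0.1013 for Srebf1, −0.2065 (without WT 3) to 0.2715 for Mvk, −0.0536 (without WT 1) to 0.7178 for Scd1, and −0.0800 (without WT 2) to 0.0645 for Npc1. The deviations of same-numbered samples correlated at 0.04, 0.04 and −0.01. With 3 samples per genotype and WT 3 apart from the others, these values cannot tell whether equal replicate numbers paired the samples. With the replicate number as a block, 3190 genes were called, the median of the 37 was 0.30, and no call among them changed. Labels and headers name no sequencing batch. With 3 samples per genotype and WT 3 apart from the others, calls near the fold cutoff (Acaca, Abcg1, Tm7sf2, Insig1, Fdft1, Scd2) depend on single samples, and depth limits only Fads2 and Scd1.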
